A study of Mus musculus with 6 samples.

Results

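Sphingosine-1-phosphate (S1P) is a signalling lipid that cells make, export, sense and destroy with a small set of proteins. The 10 genes described here were chosen by name from the 36976 genes measured: the 5 S1P receptors S1pr1, S1pr2, S1pr3, S1pr4 and S1pr5, the sphingosine kinases Sphk1 and Sphk2, the S1P lyase Sgpl1, the S1P phosphatase Sgpp1 and the S1P exporter Spns2. All 10 were found in the table. The kinases phosphorylate sphingosine, which is released from ceramide, and the phosphatase reverses that step, whereas the lyase cleaves S1P irreversibly and so drains the whole sphingolipid pool. Exported S1P is abundant in blood and lymph and scarce inside tissues, and the receptors, all coupled to G proteins, let lymphocytes and haematopoietic progenitors sense that gradient as they leave or stay in the marrow.

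The libraries were made from long-term chronic myeloid leukaemia (LT-CML) stem cells of C57BL/6 mice. Every mouse carried the SCL-tTA and TRE-BCR-ABL1 transgenes, in which the stem cell leukaemia (SCL) gene's regulatory sequence drives a tetracycline transactivator that switches on BCR-ABL1 in haematopoietic cells once doxycycline is withdrawn. Marrow was taken 5 weeks after that withdrawal, at 10 to 12 weeks of age. Controls were Gdpd3+/+, and the Gdpd3-/- mice carried a germline deletion of 5 bases near the start of the coding sequence of Gdpd3, a lysophospholipase D, so that every cell of the animal lacked the intact gene. Cells were sorted as lineage-negative, Sca-1+ and cKit+ cells that were positive for CD150 and negative for CD48 and CD135. Each genotype had 3 libraries, numbered 1, 2 and 3 for Gdpd3+/+ and 5, 6 and 7 for Gdpd3-/-, an order kept in all lists of values. Marrow of 22 male and 12 female mice went into the Gdpd3+/+ libraries and of 5 male and 5 female mice into the Gdpd3-/- libraries, so the sex ratio and the number of pooled animals cannot be told apart from genotype, and p-values measure the spread between pools.

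Expression is given as FPKM, the fragments on a gene scaled by its length and by all fragments on genes in the library, which lets levels be compared between genes. Depth on genes, recovered from the steps of the FPKM values, was 49753146, 62762437 and 61283166 fragments in the Gdpd3+/+ libraries and 21334716, 36421439 and 25136824 fragments in the Gdpd3-/- libraries, so the median Gdpd3+/+ library was 2.44 times as deep. Over genes averaging at least 1 FPKM, Pearson's r of log2(FPKM + 0.1) was 0.973 to 0.979 between Gdpd3+/+ libraries. It was 0.808 to 0.865 between Gdpd3-/- libraries, and 0.930 to 0.933 between replicate 7 and the controls. The spread was thus unlike in the genotypes, whereas the main model took a single spread per gene for both. Gdpd3 itself stood at 7.30, 3.29 and 2.95 FPKM in the Gdpd3+/+ libraries. The Gdpd3-/- libraries had 0.110, 0.0129 and 0.681 FPKM, all 3 below the lowest control. The log2 fold change of Gdpd3 was -4.00, and its adjusted p of 0.0588 by limma with Benjamini-Hochberg adjustment missed the threshold of 0.05. Gm9967, on the other strand, shares 190 bases of Gdpd3 exon, and the library kit does not mark strand. Gm9967 was at 1.41, 0.743 and 0.801 FPKM in Gdpd3+/+ and at 0.0379, 0.00740 and 0.172 FPKM in Gdpd3-/- libraries.

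The sorted population was checked against its markers. All 10 stem cell markers were above 0 in every library, and their summed FPKM was 743, 666 and 742 in Gdpd3+/+ and 924, 698 and 800 in Gdpd3-/- libraries. Ly6a, which encodes Sca-1, was the most abundant at 342 to 563 FPKM. All 12 genes of each of the skeletal muscle, erythroid, neutrophil, and monocyte and macrophage lists below were also above 0 in every library. Presence alone thus does not mark the sorted cells. Transcripts of genes used for exclusion were also present. Flt3, which encodes CD135, was at 11.01, 10.6 and 9.80 FPKM in Gdpd3+/+ and at 46.5, 37.8 and 36.8 FPKM in Gdpd3-/- libraries, a log2 fold change of 1.93 (standard error 0.13, adjusted p = 0.00562 by limma with Benjamini-Hochberg adjustment). Without Gdpd3+/+ replicate 1 or replicate 2 the log2 fold change of Flt3 was 1.97 and 1.94. The limma adjusted p was 0.0705 and 0.0502, and Flt3 was not called. Cd48 was at 39.8 to 44.8 FPKM in Gdpd3+/+ and at 51.6 to 92.2 FPKM in Gdpd3-/- libraries. Itgam, which encodes part of Mac-1, went the other way, at 22.3, 20.6 and 19.3 FPKM in Gdpd3+/+ and at 13.4, 1.69 and 8.43 FPKM in Gdpd3-/- libraries. Ly6g overlapped at 19.0 to 44.2 and 23.6 to 40.6 FPKM, and so did Cd4, at 0.516 to 1.09 and 0.315 to 2.31 FPKM. The T cell gene Cd8a was at 0 in 4 libraries and at most 0.00120 FPKM in the others.

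Markers of other cell types separated the genotypes. The 12 skeletal muscle genes summed to 1327, 927 and 899 FPKM in Gdpd3+/+ and to 11519, 16545 and 2210 FPKM in Gdpd3-/- libraries. Acta1, skeletal muscle actin, led them with 232 to 344 FPKM in Gdpd3+/+ and 2969, 4536 and 555 FPKM in Gdpd3-/- replicates 5, 6 and 7. The 12 neutrophil genes ran the other way, at 32824, 29642 and 31505 FPKM in Gdpd3+/+ and 14261, 8421 and 9510 FPKM in Gdpd3-/- libraries, with S100a8 the most abundant at 11686 to 13261 against 3060 to 6441 FPKM. The 12 monocyte and macrophage genes summed to 1798 to 1881 FPKM in Gdpd3+/+ and 526 to 739 FPKM in Gdpd3-/- libraries, most of it Ly6c2, without which the sums overlapped at 69.2 to 85.5 and 70.4 to 88.7 FPKM. With Vcam1 also left out, the 10 other genes summed to 53.9 to 65.5 FPKM in Gdpd3+/+ and, higher, to 69.3 to 85.9 FPKM in Gdpd3-/- libraries. The median log2 fold change of the monocyte and macrophage list was 0.31, against 0.24 over all genes tested. The 13 B and plasma cell genes, led by Jchain, summed to 2367 to 3020 and 1130 to 2015 FPKM. Without Jchain and the called genes Mzb1 and Xbp1, the 10 others overlapped at 97.7 to 110.6 and 89.0 to 119.4 FPKM. Of the 13, 5 had all Gdpd3-/- libraries below the controls (8.27% of all genes) and 2 had them above (23.5%). These 2 were Cd79b, at 39.5 to 39.9 and 50.2 to 58.7 FPKM, and Ebf1, at 0.0563 to 0.0836 and 0.0985 to 0.783 FPKM. The 12 T and NK cell genes, led by Nkg7, summed to 390 to 469 and 211 to 353 FPKM. That last difference came from Nkg7, at 382 to 457 and 149 to 313 FPKM, whereas Gzma, at 0.150 to 0.560 and 3.81 to 10.6 FPKM, and Gzmb, at 2.57 to 7.41 and 32.0 to 45.9 FPKM, were higher in Gdpd3-/- cells. The 9 others together overlapped at 3.44 to 5.08 and 3.84 to 4.93 FPKM, and the median log2 fold change of the list was -0.22. The 12 endothelial genes, led by Esam, summed to 69.6 to 73.6 and 74.7 to 88.1 FPKM. For the erythroid list, led by Hba-a1 at 350 to 1312 FPKM, sums of 3786 to 5643 and 2688 to 5831 FPKM overlapped, as did those of the megakaryocyte and platelet list, led by Pf4 at 121 to 310 FPKM, at 380 to 480 and 366 to 680 FPKM. Gp6, a platelet collagen receptor, was at 0 in every library. Over the 9 lists, limma called 11 of the 104 marker genes tested (1.71% over all genes), while at an unadjusted p under 0.05 there were 41 (22.2% over all genes). Called higher in Gdpd3-/- cells were Gzma and Gzmb, and called lower were the neutrophil genes Elane, Prtn3, Ngp, Camp and Ltf, the B and plasma cell genes Mzb1 and Xbp1, and Ly6c2 and Vcam1 of the monocyte and macrophage list, with Vcam1 at 14.5 to 20.01 and 1.08 to 4.62 FPKM. Of these 11 calls, 0 were made without Gdpd3+/+ replicate 1, without Gdpd3+/+ replicate 2 or with no intensity trend, 1 without Gdpd3+/+ replicate 3, 6 without Gdpd3-/- replicate 5, 7 without Gdpd3-/- replicate 6, 4 without both of these, 2 with no filter, 5 with a pseudocount of 1, 8 with array weights or quantile normalization and 10 with voom. Without Gdpd3-/- replicate 7 there were 35 calls in 102 tested, all 12 muscle genes among them, beside 14.2% of all genes. In sorted pools, fewer cells of a type and less RNA per cell cannot be told apart, and the part of these cell type differences in the values of the S1P genes was not tested.

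**Figure D1:**
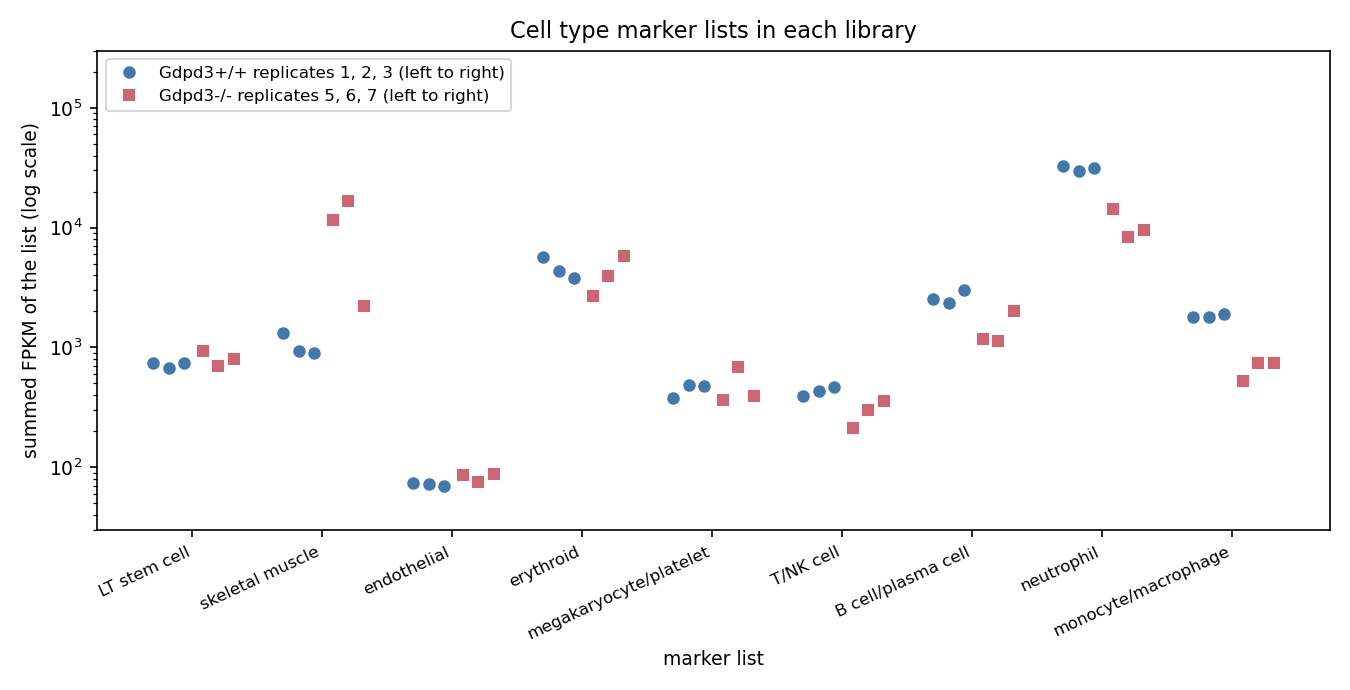
Summed FPKM of each cell type marker list on a log axis, with each point a library; circles are Gdpd3+/+ replicates 1, 2 and 3 and squares Gdpd3-/- replicates 5, 6 and 7. Skeletal muscle sums of Gdpd3-/- replicates 5 and 6 lie at 11519 and 16545 FPKM, while the neutrophil sums of all 3 Gdpd3-/- libraries lie below those of Gdpd3+/+.

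Libraries of both genotypes held transcripts for every step of S1P handling, with the exporter and the phosphatase the most abundant by mean FPKM. Which cells of the sorted pools carried these transcripts was not tested. In Gdpd3+/+ cells the order of mean FPKM was Spns2 at 42.7, Sgpp1 at 40.9, Sgpl1 at 15.9, S1pr2 at 10.9, S1pr1 at 7.71, S1pr4 at 7.35, Sphk2 at 5.60, Sphk1 at 4.57, S1pr3 at 1.85 and S1pr5 at 0.0351. The libraries of Spns2 and Sgpp1 overlapped in this order, as did those of S1pr1 and S1pr4 and of Sphk2 and Sphk1, and the other neighbours were apart. In Gdpd3-/- cells Spns2 again led, at 52.3 FPKM, and Sgpp1 followed at 21.3 FPKM with libraries that overlapped those of Sgpl1 at 15.9 FPKM. In replicate 5, S1pr1 at 17.6 FPKM exceeded Sgpp1 at 16.3 FPKM. From Sgpl1 down to S1pr2, the order Sgpl1, S1pr1, S1pr4 and S1pr2 held overlapping neighbours at every step. Sphk2 at 7.29, Sphk1 at 4.87 and S1pr3 at 1.93 FPKM also overlapped in turn, and S1pr5 came last at 0.0424 FPKM.

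**Figure D2:**
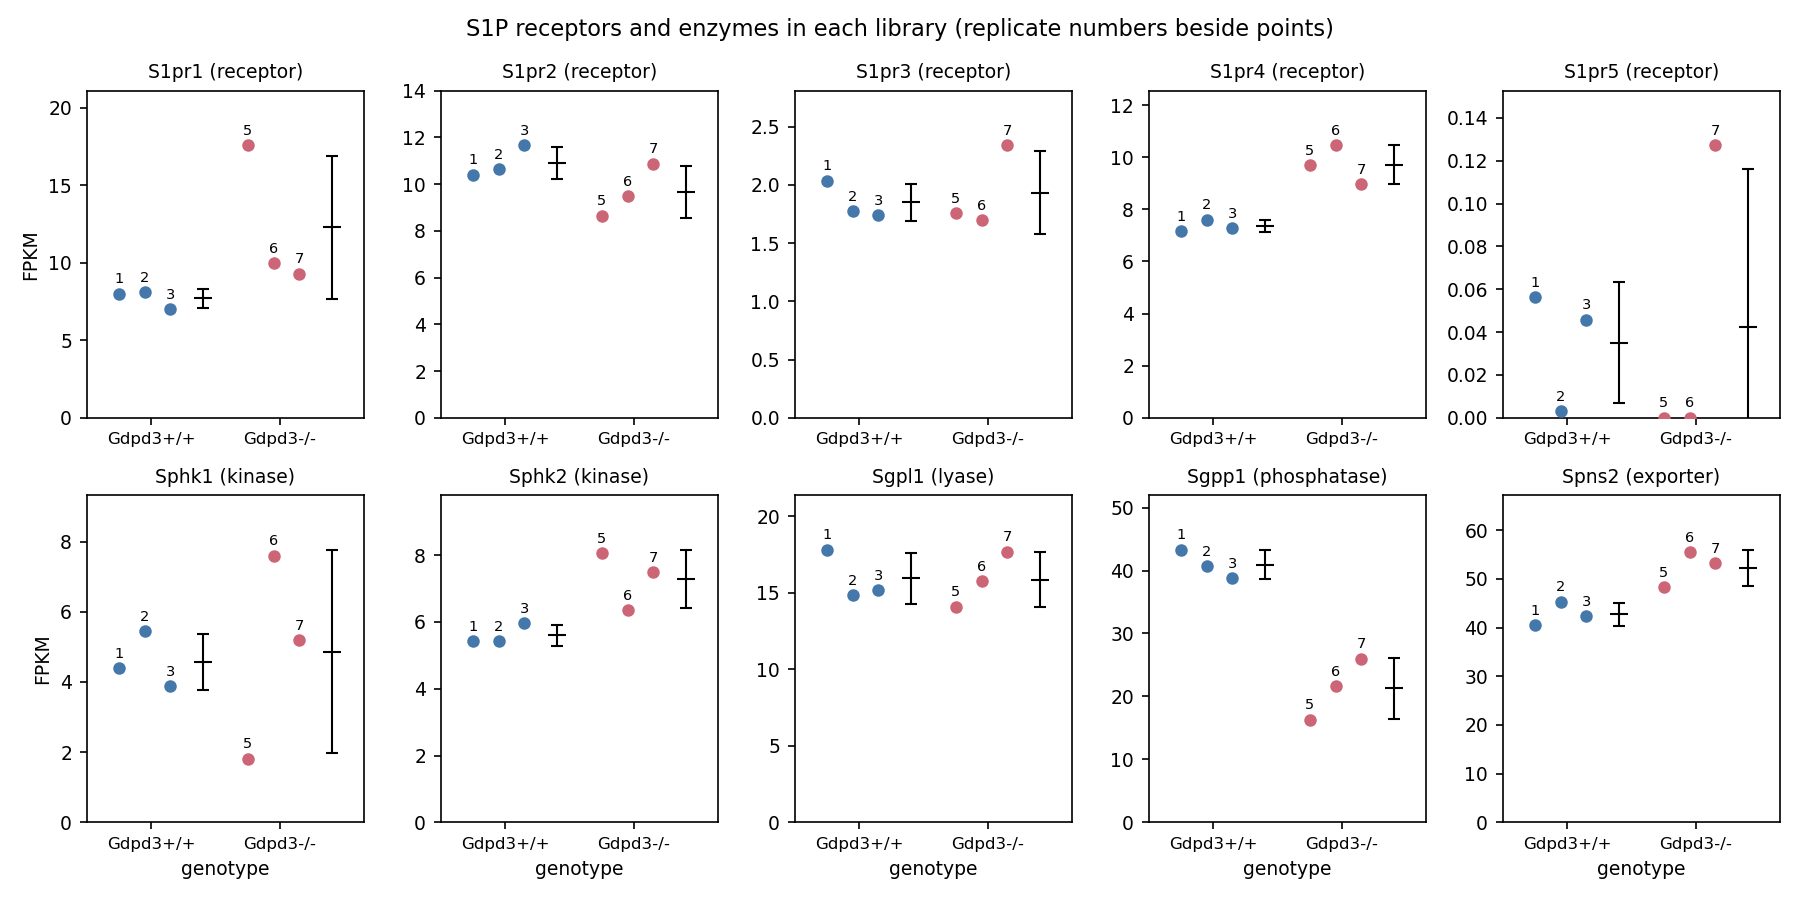
FPKM of each S1P gene by genotype; each point is a library with its replicate number, and the bar beside the points gives the mean and standard deviation of 3 libraries. Sgpp1 is at 38.8 to 43.3 FPKM in Gdpd3+/+ and at 16.3 to 26.0 FPKM in Gdpd3-/- libraries, and the axes start at 0, where the Gdpd3-/- bar of S1pr5 leaves the panel, and differ between genes.

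Between the genotypes, Sgpp1 had the largest log2 fold change among the 9 S1P genes tested, lower in Gdpd3-/- cells, while S1pr1, S1pr4, Sphk2 and Spns2 had all 3 Gdpd3-/- libraries above all 3 controls. S1pr2, S1pr3, S1pr5, Sphk1 and Sgpl1 overlapped. None of the 9 was called by limma at an adjusted p under 0.05, against 422 of the 24689 genes tested (1.71%, with 1.09% higher and 0.616% lower in Gdpd3-/- cells), and limma's voom on recovered fragments called 1, Sgpp1, and 3.66% of all genes. At an unadjusted p under 0.05 there were 3, with S1pr4 and Spns2 higher and Sgpp1 lower, and over all genes the shares were 22.2% in either direction, 16.5% higher and 5.76% lower. The 5 S1P genes whose libraries did not overlap, 4 of them higher and 1 lower, stand beside 31.8% of all genes tested, 23.5% higher and 8.27% lower. S1pr5, at a mean of 0.0387 FPKM over the 6 libraries, missed the minimum of 0.05 FPKM and was not tested.

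Small differences depended on the scale of the libraries. Over all genes tested the log2 fold change had a median of 0.24, and trimmed-mean (TMM) scaling of the libraries moved it by 0.20 to 0.04. Relative to the median gene, S1pr1 was higher by 0.37, S1pr4 by 0.16, Sphk2 by 0.13 and Spns2 by 0.05 on the log2 scale, and Sgpp1 was at -1.20. After TMM scaling, 2 of the S1P genes had all Gdpd3-/- libraries above the controls, S1pr1 and S1pr4 (14.5% of all genes), and 2 had them below, Sgpp1 and S1pr2 (15.2%), whereas the libraries of Sphk2 and Spns2 overlapped. The calls over all genes were also split differently, with 118 higher and 241 lower in place of 270 higher and 152 lower.

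**Figure D3:**
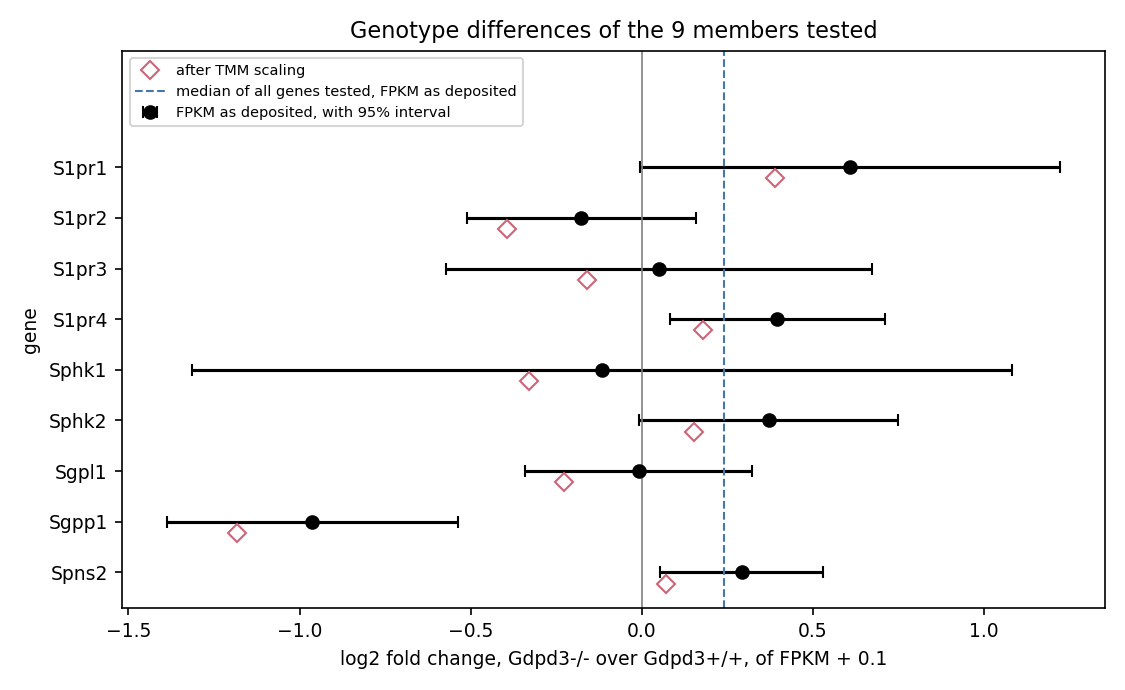
Log2 fold change (Gdpd3-/- over Gdpd3+/+, of FPKM + 0.1) of the 9 S1P genes tested; filled circles with 95% intervals use FPKM as deposited, open diamonds follow TMM scaling, and the dashed line is the median of all genes at 0.24. Sgpp1 lies at -0.96 and at -1.18 after scaling, and S1pr3 changes sign with the scaling.

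Sphingosine kinases make S1P, Sphk1 mainly at the cytosol and plasma membrane and Sphk2 largely in the nucleus and at internal membranes. Sphk1 (ENSMUSG00000061878.8, chr11:116392239-116397988 of mm9) was at 4.40, 5.44 and 3.89 FPKM in Gdpd3+/+ libraries and at 1.82, 7.60 and 5.18 FPKM in Gdpd3-/- libraries. Replicates 5 and 6 were thus the lowest and the highest of all 6, and the log2 fold change of -0.12 had a 95% interval from -1.31 to 1.08. Without replicate 5 it was 0.46, and without Gdpd3+/+ replicate 2 it was 0.01. Sphk2 (ENSMUSG00000057342.7, chr7:52964837-52973372) was at 5.41, 5.43 and 5.96 FPKM in Gdpd3+/+ and at 8.05, 6.35 and 7.48 FPKM in Gdpd3-/- libraries. All 3 Gdpd3-/- libraries lay above the controls, with means of 5.60 ± 0.309 and 7.29 ± 0.868 FPKM (s.d., n = 3 each; two-sided exact permutation test, p = 0.1, and 3 libraries against 3 can go no lower). Its log2 fold change was 0.37 (standard error 0.16, limma adjusted p = 0.231), and 0.15 after TMM scaling. Sphk2 exons share 491 bases with Dbp and 373 bases with the ribosomal protein gene Rpl18, both on the other strand, and without strand the fragments of such partners cannot be told apart. Rpl18 was at 74.1 to 78.8 FPKM in Gdpd3+/+ and at 92.3 to 100.1 FPKM in Gdpd3-/- libraries, and Dbp at 1.74 to 1.83 and 2.98 to 7.53 FPKM. Within a library Sphk2 exceeded Sphk1 in 4 of the 6, at 1.23 and 1.53 times in Gdpd3+/+ replicates 1 and 3 and at 4.43 and 1.44 times in Gdpd3-/- replicates 5 and 7.

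Spns2 carries S1P out of the cell and is best known as the exporter of endothelial cells. Spns2 (ENSMUSG00000040447.8, chr11:72265140-72303463) was the most abundant of the 10 genes in both genotypes by mean FPKM, at 40.5, 45.3 and 42.3 FPKM in Gdpd3+/+ and at 48.2, 55.4 and 53.3 FPKM in Gdpd3-/- libraries. The groups did not overlap, and the means were 42.7 ± 2.41 and 52.3 ± 3.70 FPKM (s.d., n = 3 each; two-sided exact permutation test, p = 0.1). The log2 fold change was 0.29 (standard error 0.10, limma adjusted p = 0.158), close to the 0.24 of the median gene, and TMM scaling took it to 0.07. Of the endothelial markers, Esam was the most abundant at 34.6 to 43.2 FPKM, Tie1 and Pecam1 were at 11.9 to 20.5 and 5.76 to 14.1 FPKM, and the 9 others ran from 0 to 7.33 FPKM. The part of endothelial RNA in Spns2 was not tested. Spns2 exons share 131 bases with Mybbp1a on the other strand, a gene at 40.0 to 47.6 FPKM in Gdpd3+/+ and 31.0 to 45.0 FPKM in Gdpd3-/- libraries. Among 15102 other genes with a mean of at least 1 FPKM, those whose log2(FPKM + 0.1) followed Spns2 most closely over the 6 libraries were Vps37b, Gcsh, Msto1, Dbndd2 and Acap3, with Pearson's r of 0.999, 0.997, 0.997, 0.992 and 0.992. These r values describe the best matches out of many over libraries that share the genotype difference and its depth. Vps37b, which encodes a subunit of the endosomal sorting complex ESCRT-I, had 11.03, 13.3 and 11.9 FPKM in Gdpd3+/+ and 14.8, 18.0 and 17.1 FPKM in Gdpd3-/- libraries.

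The receptors differ in the G proteins they engage: S1pr1 signals through Gi and supports egress towards S1P, S1pr2 can restrain migration, S1pr3 couples broadly, S1pr4 is largely a receptor of haematopoietic cells, and S1pr5 marks NK and other cytotoxic lymphocytes. S1pr1 (ENSMUSG00000045092.6, chr3:115413351-115417973) was at 8.02, 8.10 and 7.01 FPKM in Gdpd3+/+ and at 17.6, 9.98 and 9.29 FPKM in Gdpd3-/- libraries. All Gdpd3-/- libraries were above the controls, but replicate 5 stood well above replicates 6 and 7. The means were 7.71 ± 0.605 and 12.3 ± 4.61 FPKM (s.d., n = 3 each; two-sided exact permutation test, p = 0.1), with a log2 fold change of 0.61 (standard error 0.26, limma adjusted p = 0.228) and 0.39 after TMM scaling. Without replicate 5 the log2 fold change was 0.32, and the difference in mean FPKM was 1.92 in place of 4.58. S1pr4 (ENSMUSG00000044199.4, chr10:80961223-80962452), a gene of 1 exon, was at 7.17, 7.61 and 7.27 FPKM in Gdpd3+/+ and at 9.70, 10.5 and 8.98 FPKM in Gdpd3-/- libraries. Its groups were tight and apart, at 7.35 ± 0.231 and 9.71 ± 0.747 FPKM (s.d., n = 3 each; two-sided exact permutation test, p = 0.1), and remained apart after TMM scaling. The log2 fold change was 0.40 (standard error 0.13, limma adjusted p = 0.149), and 0.18 after that scaling.

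S1pr2 was the highest receptor in Gdpd3+/+ cells. S1pr2 (ENSMUSG00000043895.5, chr9:20770396-20781237) was at 10.4, 10.6 and 11.7 FPKM in Gdpd3+/+ and at 8.64, 9.49 and 10.9 FPKM in Gdpd3-/- libraries, so replicate 7 lay among the controls. Its log2 fold change was -0.18 with a 95% interval from -0.51 to 0.16, and after TMM scaling it was -0.39 and the groups no longer overlapped. S1pr3 (ENSMUSG00000067586.3, chr13:51503987-51518166) ranged from 1.70 to 2.34 FPKM over the 6 libraries, with the genotypes intermingled. The log2 fold change of S1pr3 was 0.05 with a 95% interval from -0.57 to 0.67, and it turned to -0.16 after TMM scaling. S1pr5 (ENSMUSG00000045087.8, chr9:21047356-21052887) was near 0, at 0.0563, 0.00319 and 0.0457 FPKM in Gdpd3+/+ and at 0, 0 and 0.127 FPKM in Gdpd3-/- libraries. The value of replicate 7 rested on 8 fragments, and no difference in S1pr5 was detectable at this depth.

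Shares within a library do not move with its scaling. The 5 receptors summed to 27.7, 28.1 and 27.7 FPKM in Gdpd3+/+ and to 37.7, 31.6 and 31.6 FPKM in Gdpd3-/- libraries. Unlike the shares, these sums do move with the scaling. TMM scaling divides them by 0.925, 0.939 and 0.917 in Gdpd3+/+ and by 1.11, 1.07 and 1.06 in Gdpd3-/- libraries, which brings the genotypes closer. S1pr2 made up 37.6%, 37.8% and 42.1% of that sum in Gdpd3+/+ and 22.9% to 34.4% in Gdpd3-/- libraries. S1pr1 made up 29.0%, 28.8% and 25.3% in Gdpd3+/+ and 46.7%, 31.5% and 29.4% in Gdpd3-/- libraries. Hence S1pr2 exceeded S1pr1 in all 3 controls, whereas the ratio of S1pr1 to S1pr2 was 2.04, 1.05 and 0.854 in the Gdpd3-/- libraries, against 0.771, 0.761 and 0.601. S1pr4 held 25.7% to 33.1% of the sum, S1pr3 4.66% to 7.41%, and S1pr5 at most 0.403%. These shares were computed after the values were seen and were not tested.

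**Figure D4:**
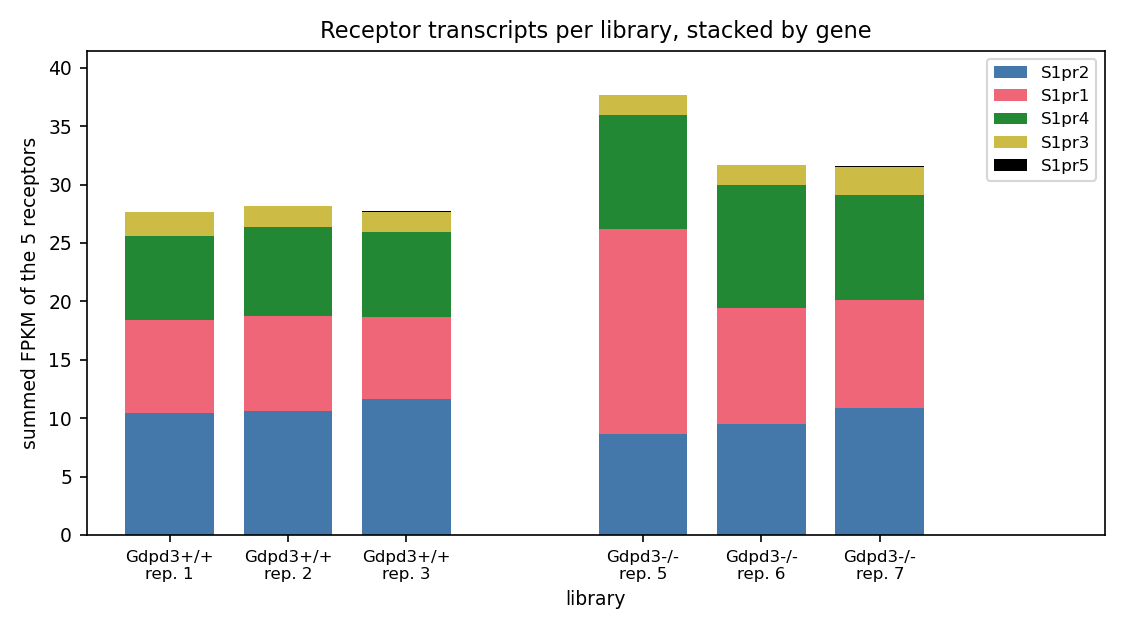
Summed FPKM of the 5 S1P receptors in each library, as deposited and before TMM scaling, stacked by gene from S1pr2 at the bottom. S1pr1 takes 46.7% of the sum in Gdpd3-/- replicate 5 and 25.3% to 31.5% in the other libraries, and S1pr5 is too low to see in most bars.

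The enzymes that remove S1P had unlike patterns. Sgpl1, the lyase, (ENSMUSG00000020097.8, chr10:60561390-60610451) was at 17.8, 14.8 and 15.2 FPKM in Gdpd3+/+ and at 14.1, 15.8 and 17.7 FPKM in Gdpd3-/- libraries. The ranges were nearly the same, and the log2 fold change of -0.01 had a 95% interval from -0.34 to 0.32 (limma adjusted p = 0.973). It was -0.23 after TMM scaling, and its sign varied with the library left out. Sgpp1, the phosphatase of the endoplasmic reticulum that returns S1P to sphingosine, (ENSMUSG00000021054.4, chr12:76815235-76836716) was at 43.3, 40.7 and 38.8 FPKM in Gdpd3+/+ and at 16.3, 21.6 and 26.0 FPKM in Gdpd3-/- libraries. Every Gdpd3-/- library was below every control by at least 12.8 FPKM, and replicate 7 was the closest of them. The means were 40.9 ± 2.29 and 21.3 ± 4.86 FPKM (s.d., n = 3 each; two-sided exact permutation test, p = 0.1), a ratio of 0.521. These values rest on 1155 to 8494 fragments per library. The log2 fold change was -0.96 (standard error 0.18, 95% interval -1.39 to -0.54), number 511 of 24689 by p, and the limma adjusted p of 0.0560 missed the threshold. Of 16 other settings, 6 brought Sgpp1 under the threshold, 1 of them with a lone Gdpd3-/- library that is assumed to vary like the controls, TMM scaling among them at an adjusted p of 0.0454, and over all of them the limma adjusted p ran from 0.0141, reached without Gdpd3-/- replicate 7, to 0.256, reached when Gdpd3+/+ replicate 1 was left out. Sgpp1 was lower in Gdpd3-/- cells in all 16.

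Ratios to other S1P genes of the same library, computed after the values were seen and not tested, also separated the genotypes. The ratio of Sgpp1 to Spns2 was 1.07, 0.899 and 0.916 in Gdpd3+/+ and 0.338, 0.390 and 0.488 in Gdpd3-/- libraries. Sgpp1 exceeded Sgpl1 in all 6 libraries, by 2.43, 2.75 and 2.55 times in Gdpd3+/+ and by 1.156, 1.37 and 1.47 times in Gdpd3-/- libraries. In Gdpd3+/+ cells the phosphatase and the exporter were thus close to level, and in Gdpd3-/- cells the exporter was well ahead.

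Because Sgpp1 and Spns2 were the most abundant of the 10 genes by mean FPKM and their ratio separated the genotypes, the 250 bases before their start sites are shown from RefSeq (GRCm38.p6, another build than the mm9 positions above), 5′ to 3′ along the gene's strand. Capitals mark the letters CCAAT, one of 4 short motifs searched on both strands. The Sgpp1 stretch is chr12:75735730-75735979 on the minus strand and the Spns2 stretch chr11:72475028-72475277 on the minus strand.
Sgpp1: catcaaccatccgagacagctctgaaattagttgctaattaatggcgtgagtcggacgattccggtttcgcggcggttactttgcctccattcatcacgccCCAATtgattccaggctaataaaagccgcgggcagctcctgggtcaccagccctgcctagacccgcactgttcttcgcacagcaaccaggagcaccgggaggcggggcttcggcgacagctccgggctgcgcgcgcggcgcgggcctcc
Spns2: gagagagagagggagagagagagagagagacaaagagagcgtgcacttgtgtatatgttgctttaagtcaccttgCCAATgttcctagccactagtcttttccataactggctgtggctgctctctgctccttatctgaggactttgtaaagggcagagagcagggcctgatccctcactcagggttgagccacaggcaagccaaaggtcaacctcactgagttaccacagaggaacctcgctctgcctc

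Each stretch held 1 CCAAT, 149 bases before the start in Sgpp1 and 175 in Spns2, and 33.8% of all 32851 promoters of this length held it on either strand. G and C made up 61.2% of the Sgpp1 stretch and 51.6% of the Spns2 stretch, against a median of 52.4%. Entries matched 9 of the 10 genes (all but S1pr1), with 14 start sites. CCAAT was in 5 of the 14 and in 4 of the 9 genes, Sphk1 and Sphk2 among them. The GC box GGGCGG was in 5 of the 14 and in 32.7% of all promoters, and the letters CACCC, a core of Klf sites whose reverse complement can overlap GGGCGG, were in 10 of the 14 and in 52.0% of all. By gene GGGCGG and CACCC were in 4 and 6 of the 9. Of the 14 start sites 5 belong to Sphk1 and 2 to Sphk2, and some of the Sphk1 windows share 176 or 243 of the 250 bases. The Foxo core GTAAACA was in none of the 14 and in 3.17% of all. Such matches describe letters in a window and nothing about binding.

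The S1P genes sit in a wider sphingolipid pathway, and 78 further genes of it were read from the same limma fit in 4 lists. None of the 78 was called by limma at an adjusted p under 0.05 (voom called 1, Sgms2, and 3.66% of all genes), while 16 had an unadjusted p under 0.05, 10 higher and 6 lower in Gdpd3-/- cells, beside 22.2% of all genes tested, 16.5% higher and 5.76% lower. Their median log2 fold change was 0.11, and 24 of the 78 lay above the median of all genes. After TMM scaling their median was -0.10.

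Other S1P handling genes, which supply sphingosine, carry S1P or dephosphorylate it, had 1 of 15 at an unadjusted p under 0.05 (22.2% of all genes) and a median log2 fold change of 0.04. Asah1, the lysosomal acid ceramidase, was the most abundant, at 38.1, 35.8 and 32.7 FPKM in Gdpd3+/+ and 38.9, 35.6 and 34.3 FPKM in Gdpd3-/- libraries. Mfsd2b, the S1P exporter of erythrocytes and platelets, was at 17.6, 20.3 and 21.7 FPKM in Gdpd3+/+ and at 4.08, 17.0 and 13.2 FPKM in Gdpd3-/- libraries. The groups of Mfsd2b did not overlap, replicate 5 was far lower than the rest, and the log2 fold change was -1.02 (standard error 0.50, limma adjusted p = 0.281) and -1.24 after TMM scaling. Replicate 5 also had the lowest erythroid marker sum, 2688 FPKM against 3786 to 5831 FPKM in the others. Its megakaryocyte and platelet sum was 366 FPKM against 380 to 680 FPKM. The part of such cells in Mfsd2b was not tested. Acer3, an alkaline ceramidase, was at 12.7 to 15.2 FPKM in Gdpd3+/+ and at 13.4, 5.51 and 15.3 FPKM in Gdpd3-/- libraries.

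Ceramide synthesis genes had 3 of 17 at an unadjusted p under 0.05 (22.2% of all genes), 2 higher and 1 lower, with a median log2 fold change of 0.18. Sptssa, a small subunit of serine palmitoyltransferase, which starts the pathway, was at 160 to 174 FPKM in Gdpd3+/+ and 179 to 213 FPKM in Gdpd3-/- libraries. Its log2 fold change of 0.26 (standard error 0.10, limma adjusted p = 0.213) was about that of the median gene and 0.04 after TMM scaling. Cers2, which makes very-long-chain ceramides, was at 103, 102 and 98.1 FPKM in Gdpd3+/+ and 75.4, 82.4 and 95.5 FPKM in Gdpd3-/- libraries, apart from each other by a small margin in replicate 7. Its log2 fold change was -0.27 (standard error 0.11, limma adjusted p = 0.222) and -0.49 after TMM scaling. Ormdl3, an inhibitor of serine palmitoyltransferase, overlapped at 33.5 to 39.1 and 33.9 to 49.0 FPKM.

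Sphingomyelin and ceramide turnover genes had 5 of 21 at an unadjusted p under 0.05 (22.2% of all genes), 2 higher and 3 lower, with a median log2 fold change of 0.07. Psap, the precursor of the saposins that help lysosomal enzymes reach sphingolipids, was at 124, 132 and 128 FPKM in Gdpd3+/+ and at 190, 143 and 169 FPKM in Gdpd3-/- libraries. All Gdpd3-/- libraries of Psap were above the controls, with a log2 fold change of 0.38 (standard error 0.12, limma adjusted p = 0.136) and 0.16 after TMM scaling. Gltp, a glycolipid transfer protein, was at 97.7 to 113 FPKM and 114 to 124 FPKM, and its log2 fold change of 0.17 turned to -0.05 after TMM scaling. Smpdl3a, related to acid sphingomyelinase, overlapped at 67.7 to 75.6 and 67.8 to 94.97 FPKM.

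Receptor coupling and control genes had 7 of 25 at an unadjusted p under 0.05, 5 higher and 2 lower (16.5% and 5.76% of all genes, and 22.2% in either direction), with a median log2 fold change of 0.12. The most abundant was Gnai2, a Gi subunit through which S1pr1 signals, at 263 to 280 FPKM in Gdpd3+/+ and 292 to 303 FPKM in Gdpd3-/- libraries. Its log2 fold change of 0.13 turned to -0.09 after TMM scaling. Rac2, the haematopoietic Rac, overlapped at 193 to 203 and 159 to 200 FPKM. The log2 fold change of Rac2 was -0.19 (limma adjusted p = 0.361), and after TMM scaling it was -0.41 and all Gdpd3-/- libraries were below the controls.

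**Figure D5:**
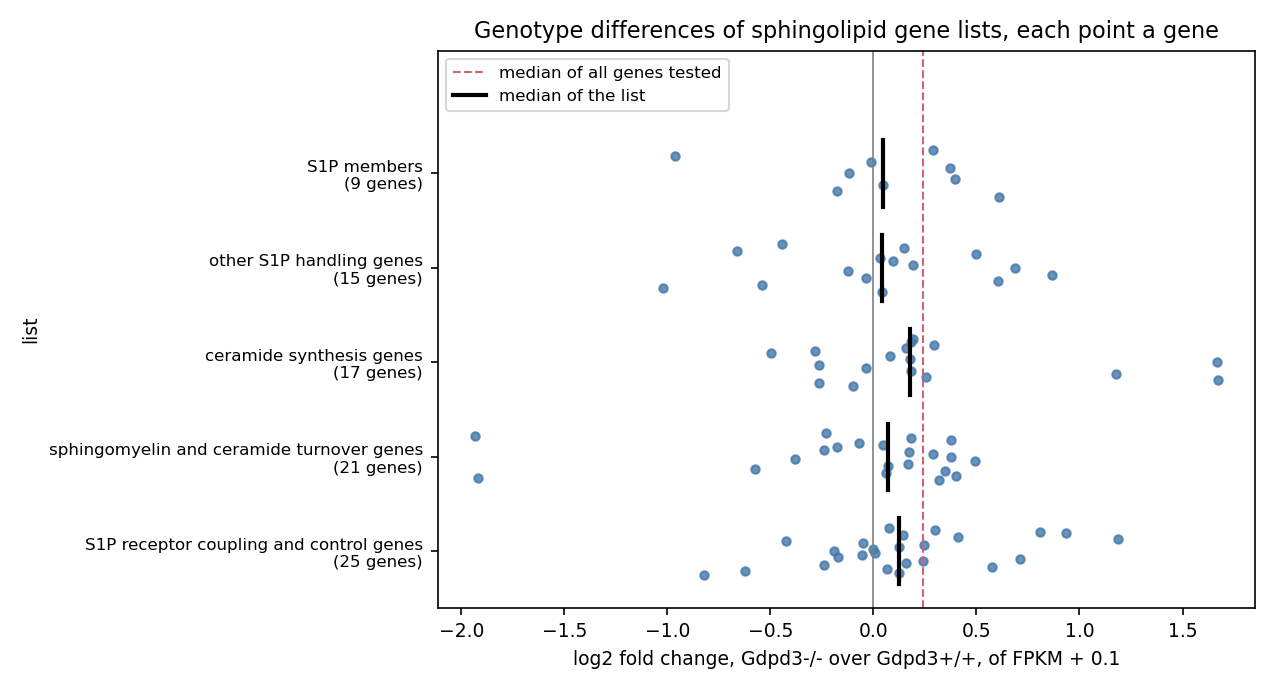
Log2 fold change (Gdpd3-/- over Gdpd3+/+, of FPKM + 0.1) of each gene in the S1P set and the 4 other sphingolipid lists; black bars are list medians and the dashed line is the median of all genes tested at 0.24. The medians of the 5 lists lie from 0.04 to 0.18, and no point passed the adjusted threshold.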

How the data were processed

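The authors made FPKM values from paired reads of 150 bases of SMART-Seq v4 libraries and deposited them for 36976 genes. Their processing notes name cutadapt 1.16, STAR 2.6.1a, featureCounts 1.6.1 and mm9. The authors also deposited a base mean, a signal averaged over the libraries after scaling, beside their DESeq2 fold changes, scores and p-values, which were not used. FPKM times gene length gave whole hundredths of a fragment in 100% of values above 0 (tolerance 0.01), and the resulting fragments met the base mean with a median difference of 0.00995%, so they were taken as fractional fragment counts.

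Genotype was the only term of a linear model over all 24689 genes averaging at least 0.05 FPKM, fitted on log2(FPKM + 0.1) in R 4.3.3 by limma 3.58.1, whose variance prior followed intensity. Benjamini-Hochberg adjustment covered all of them (threshold 0.05). Fold changes on this scale understate changes of low genes. Exact permutation tests used 20 assignments. Members and lists were chosen with earlier results of these data known. Named were all members, called pathway genes and the 3 most abundant of each list, Gdpd3, the leading gene of each marker list and markers at 0, and the 5 genes most like Spns2, except a gene of the coupling list that is not reported here. Flt3, Cd48, Itgam, Ly6g, Cd4, Cd8a, called markers, Cd79b and Ebf1 were named after their values were seen. So were the endothelial markers other than Esam, the exon partners and the genes under other observations. Other settings tried were a pseudocount of 0.01 or 1, testing every gene above 0 or those averaging at least 1 FPKM, scaling by TMM (trimming 30% of M values, 5% of A values) or by quantiles, dropping the trend, weighting libraries, omitting each library, and 2 chosen after seeing the data: voom on the recovered fragments and leaving out Gdpd3-/- replicates 5 and 6.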

Additional observations from a re-analysis of the deposited data

How the results depend on the processing

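No paired analysis was possible because the genotypes share no replicate number. The number of genes called over all genes, 422, was 225 with a pseudocount of 1, 213 with no filter, 673 at a mean of at least 1 FPKM, 153 with no intensity trend and 240 with array weights. Leaving out single libraries gave 0 (without Gdpd3+/+ replicate 1) to 3413 (without Gdpd3-/- replicate 7). It was 1, 21 and 187 without Gdpd3+/+ replicates 2 and 3 and Gdpd3-/- replicate 5. The alternatives chosen after seeing the data, voom on recovered fragments and leaving out Gdpd3-/- replicates 5 and 6, gave 903 and 2294. The number of S1P genes called, 0, became 1 in some settings, always Sgpp1. It did so at a mean of at least 1 FPKM (4.46% of all genes called), with TMM scaling (1.45%), quantile normalization (1.32%) and voom (3.66%). With single libraries left out it was 0 to 1 (1 without Gdpd3-/- replicate 7, beside 14.2% of all genes). Without replicates 5 and 6 together, the log2 fold change of Sgpp1 was -0.65. Of the 78 other pathway genes 1, Sgms2, was called at a mean of at least 1 FPKM, where 64 were tested (4.46% of all genes called). Sgms2 alone was also called with TMM scaling (1.45%), array weights (0.972%) and voom (3.66%). Single libraries left out gave 0 to 6 of them (2 without Gdpd3-/- replicate 6, 6 without Gdpd3-/- replicate 7, beside 1.94% and 14.2% of all genes), and 7 of 74 were called without replicates 5 and 6, beside 10.2% of all genes, where the lone Gdpd3-/- library is assumed to vary like the controls. Fewer genes are tested at the higher filter, and fewer libraries are fitted when some are left out. The cause of the other shifts was not tested.

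The log2 fold changes of 6 of 9 S1P genes kept their sign in all 16 alternatives. That of S1pr3 was -0.16 with TMM scaling, -0.35 with quantile normalization and -0.0911 to 0.13 with single libraries left out. That of Sphk1 was -0.54 to 0.46 with single libraries left out and 0.19 without replicates 5 and 6. That of Sgpl1 was 0.0327 with array weights, 0.0029 with voom, -0.0913 to 0.0732 with single libraries left out and 0.15 without replicates 5 and 6. The difference in mean FPKM (Gdpd3-/- minus Gdpd3+/+) turned for S1pr3, from 0.0823 to -0.202 with TMM scaling and to -0.123 to 0.2 with single libraries left out. For Sphk1 it went from 0.292 to -0.389 with TMM scaling and ran from -1.07 to 1.82 with single libraries left out. For Sgpl1 it went from -0.0881 to 1.76 without replicates 5 and 6 and ran from -1.01 to 0.853 with single libraries left out. For S1pr5 it ran from -0.0351 to 0.0286 with single libraries left out, at a depth of 0 to 8 fragments. The cause of these turns was not tested.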

Other observations

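Of the 78 other sphingolipid genes, 14 had all Gdpd3-/- libraries above the controls and 8 had them below, beside 23.5% and 8.27% of all genes tested. Some that limma did not call and that were not among the most abundant of their lists are given here, chosen after their values were seen. Sgms2, a sphingomyelin synthase of the plasma membrane, was at 9.92, 9.20 and 8.63 FPKM in Gdpd3+/+ and at 1.41, 3.93 and 2.37 FPKM in Gdpd3-/- libraries. Its log2 fold change was -1.92 (standard error 0.35, limma adjusted p = 0.0560), lower in 3 of 3 Gdpd3-/- libraries. Sgms1, the Golgi enzyme of the same reaction, was at 17.9, 16.1 and 14.8 FPKM in Gdpd3+/+ and at 21.9, 20.7 and 18.2 FPKM in Gdpd3-/- libraries (log2 fold change 0.32, limma adjusted p = 0.213, and 0.10 after TMM scaling). B4galt6, a lactosylceramide synthase, was at 8.07, 6.64 and 7.21 FPKM in Gdpd3+/+ and at 1.87, 0.873 and 3.65 FPKM in Gdpd3-/- libraries (log2 fold change -1.93, limma adjusted p = 0.0881, and -2.15 after TMM scaling). Plpp3, a lipid phosphatase that acts on extracellular S1P, was at 1.75, 2.22 and 1.86 FPKM in Gdpd3+/+ and at 4.66, 3.67 and 2.75 FPKM in Gdpd3-/- libraries (log2 fold change 0.87, limma adjusted p = 0.131, and 0.65 after TMM scaling).

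Among the control genes of S1P receptors, Klf2, a transcription factor known to drive S1pr1 in lymphocytes, was at 9.94, 12.7 and 9.93 FPKM in Gdpd3+/+ and at 18.7, 20.2 and 39.7 FPKM in Gdpd3-/- libraries. The log2 fold change of Klf2 was 1.19 (standard error 0.30, limma adjusted p = 0.0912) and 0.97 after TMM scaling. Klf2 and S1pr1 both had all Gdpd3-/- libraries above the controls. Replicate 7 had the highest Klf2 of the 6 libraries, and replicate 5 the highest S1pr1. A link between these genes was not tested. Rgs1 and Rgs2, which speed the shut-off of G protein signals, had log2 fold changes of 0.94 and 0.81 (limma adjusted p = 0.0958 and 0.109, and 0.72 and 0.59 after TMM scaling), with Rgs1 at 36.1 to 38.5 FPKM in Gdpd3+/+ and at 91.8, 47.7 and 84.5 FPKM in Gdpd3-/- libraries. Gnai3, another Gi subunit, was at 93.5, 84.6 and 81.8 FPKM in Gdpd3+/+ and at 39.7, 60.6 and 73.6 FPKM in Gdpd3-/- libraries (log2 fold change -0.62, limma adjusted p = 0.171, and -0.84 after TMM scaling).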
